A study of Mus musculus with 23 samples.

Results

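The 77 genes described here encode proteins of the mitochondrial ribosome. They are all the rows of the expression tables whose symbol is Mrpl or Mrps followed by a digit, leaving out pseudogenes, among 24421 genes in all. The mitochondrial ribosome, or mitoribosome, translates the few messages of the mitochondrial genome, which encode core subunits of the respiratory chain and of ATP synthase. Its RNAs come from mitochondrial DNA, whereas all of its proteins are made from nuclear genes in the cytosol and imported, so that its build-up needs both genomes. Mrpl genes are named for the large subunit, which joins amino acids, and Mrps genes for the small subunit, which reads the message. About these names 3 exceptions bear on the results, since the proteins of Mrps18a and Mrps30 sit in the large subunit and that of Mrps36 is known as a part of the 2-oxoglutarate dehydrogenase complex. Mature neutrophils, the most frequent myeloid cells in blood, contain few active mitochondria and live largely on glycolysis.

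RNA was sequenced, after poly-A selection, from myeloid-derived suppressor cells, also labelled immature myeloid cells, which were separated with magnetic beads from the peripheral blood of mice. In one model Balbc mice (the label's strain) carried CT26, a colon carcinoma line, and cells were taken at days 0, 4, 8 and 11 with 3 libraries a day. In the other model C57bl mice carried B16, a melanoma line, and the same days were sampled with 3 libraries a day except day 4, which had replicates 1 and 3. The study asked how these blood cells change as a tumour grows. The labels call the libraries of a day biological repeats and do not say whether they came from separate animals, so the p-values measure the spread between these libraries. They name no genotype, age or treatment beyond tumour and day, and do not say what day 0 mice received.

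Values are normalized counts, which the authors scaled by library. The models were normalized separately, so levels are not compared between them. Library totals ran between 10703698 and 14272441 for CT26, and between 12388717 and 15027698 for B16. Of 11 neutrophil markers none was at 0 in any group. They summed to 4.78% to 5.65% of CT26 libraries at day 0, 5.17% to 5.43% at day 4, 6.12% to 6.78% at day 8 and 6.84% to 7.22% at day 11. In B16 they summed to 5.35% to 5.48% at day 0, 5.32% to 5.42% at day 4, 5.18% to 5.43% at day 8 and 6.18% to 6.58% at day 11. They were thus higher at CT26 days 8 and 11 and at B16 day 11 than at day 0 of the same model, and their part in the changes of the mitoribosomal genes was not tested. All 3 B16 day 0 libraries stood apart, because Rn45s, the 45S ribosomal RNA precursor gene, made up 0.427% to 1.05% of B16 libraries after day 0 and 2.57% to 3.1% of the day 0 ones. CT26 day 11 replicate 1 also stood apart, with 0.0613% of its counts in 8 tissue macrophage markers, against 0.00638% and 0.0114% in the other libraries of that day. It was the highest of the 3 day 11 libraries in 55 of 75 tested mitoribosomal genes, and the highest in 34.8% of all genes.

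Changes are log2 fold changes on the log2(value + 1) scale, with their standard error, from limma fits over all genes with a mean of at least 5. A gene is called, and said to have risen or fallen, at an adjusted p under 0.05 (Benjamini-Hochberg over all genes tested). In CT26 75 of 77 genes passed the filter and in B16 all 77 did. Mrps27 and Mrps6, with CT26 means of 4.34 and 2.83, did not pass, and Mrpl47 lay just inside with 6.89. The comparisons with day 0 share the day 0 libraries of their model and are not independent of each other.

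The promoters of several of these genes are shown before their values, because mitoribosomal genes are known to share short binding sequences of nuclear transcription factors at their starts, among them ETS family factors such as the GABP complex, YY1 and NRF1. Each stretch runs from 90 bases before the RefSeq start site (GRCm38.p6) through the first 30 bases of the transcript, 5′ to 3′ on the strand of the gene. Capitals mark matches to the letters CCGGAAG (ETS) or AAGATGGCG (YY1) on either strand, the reverse strand reading CTTCCGG for ETS, and no stretch shown holds a match to the NRF1 motif. Mrps12, Mrps21 and Mrpl43 fell on all 3 days in B16, Mrps18a carries both an ETS and a YY1 match, and Mrpl33 and Mrpl52 moved in opposite directions in the models. Every stretch shown holds an ETS match, whereas 25 of the 68 genes with a RefSeq window, described below, had one. The genes shown thus do not represent the family, and their choice ties no motif to a change in level.
Mrps12, chr7:28741792-28741911, minus strand: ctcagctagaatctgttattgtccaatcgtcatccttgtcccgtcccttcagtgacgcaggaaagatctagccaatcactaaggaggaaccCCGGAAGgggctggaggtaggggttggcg
Mrps21, chr3:95871485-95871604, minus strand: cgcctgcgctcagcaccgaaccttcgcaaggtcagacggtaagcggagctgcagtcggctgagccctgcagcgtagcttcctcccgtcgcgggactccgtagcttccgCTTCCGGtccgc
Mrpl43, chr19:45006413-45006532, minus strand: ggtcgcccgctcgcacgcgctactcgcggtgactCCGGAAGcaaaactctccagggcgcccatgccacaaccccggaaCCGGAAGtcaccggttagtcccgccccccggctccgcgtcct
Mrps18a, chr17:46110914-46111033, plus strand: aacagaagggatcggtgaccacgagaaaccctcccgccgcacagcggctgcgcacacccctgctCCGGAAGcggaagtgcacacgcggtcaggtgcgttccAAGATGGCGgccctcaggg
Mrpl33, chr5:31613861-31613980, plus strand: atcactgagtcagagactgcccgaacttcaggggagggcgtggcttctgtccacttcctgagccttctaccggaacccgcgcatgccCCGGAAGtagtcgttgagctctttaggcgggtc
Mrpl52, chr14:54426819-54426938, plus strand: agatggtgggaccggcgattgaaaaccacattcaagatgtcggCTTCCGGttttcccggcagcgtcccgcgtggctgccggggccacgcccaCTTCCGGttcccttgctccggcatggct

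RefSeq windows of 300 bases, 250 before the start and 50 from it, were found for 68 of the 77 genes, and with alternative starts they number 74. The ETS letters were in 33.8% of these windows and in 11.6% of 21263 windows of protein-coding genes. The YY1 letters were in 10.8% of the mitoribosomal windows and 1.83% of all, and the palindromic NRF1 motif in 4.05% and 1.33%. Both strands were searched. ETS and YY1 letters can overlap by the bases AAG. The CCAAT box letters CCAAT (40.5% against 38.2%) and the E-box CACGTG (9.46% against 7.84%) lay closer to their shares in all windows, and the TATA box letters TATAAA were in 6.76% of the mitoribosomal windows against 12.6%. The GC content of the mitoribosomal windows had a median of 58.5%, against 56.33% for all. Of the genes with a window, 17 of 39 that fell at B16 day 8 and 8 of the 29 others had the ETS letters. The other 2 motifs ran the other way, with the YY1 letters in 3 of the 39 and 5 of the 29. The NRF1 motif was in 1 of the 39 and 2 of the 29. These counts are a description with no test. A match of letters is not evidence of binding.

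Within each model the order of levels was set per kilobase of the median coding transcript. Mrpl33, a small large-subunit protein with a bacterial counterpart, was highest in both models, at 2976 normalized counts per kilobase in CT26 and 5072 in B16. Mrps21 followed, at 793 per kilobase in CT26 and 1567 in B16. Mrpl47 was lowest in both, at 2.05 per kilobase in CT26 and 2.88 in B16. On the scale of mean counts, not per length, 56 genes of CT26 and 44 of B16 lay between 10 and 100, which limits the precision of a single library.

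In both models the mitoribosomal genes together took a smaller share of the library at every later day than at day 0. In CT26 their summed share was 0.066% to 0.0771% at day 0, 0.0576% to 0.0642% at day 4, 0.0571% to 0.0635% at day 8 and 0.0519% to 0.0646% at day 11. In B16 it was 0.118% to 0.128% at day 0, 0.0817% to 0.0906% at day 4, 0.0743% to 0.0868% at day 8 and 0.0822% to 0.0881% at day 11. No later library of either model reached the lowest day 0 library in this share. Sums of the normalized counts themselves overlapped with day 0 in CT26 at every later day. They were 7104 to 8252 at day 0 and 6824 to 7489 at day 4. At days 8 and 11 they were 6933 to 7649 and 7070 to 7638. This overlap depended on Mrpl33, the gene with the highest mean count. Without Mrpl33 the CT26 sums were 6095 to 6755 at day 0, 5676 to 6089 at day 4 and 5500 to 6090 at day 8. At day 11 they were 5330 to 6129, the one later day that still overlapped with day 0. B16 sums did not overlap with day 0, at 16247 to 17183 at day 0 and 11574 to 12625 at day 4. They were 9207 to 10876 at day 8 and 12242.5 to 13192 at day 11. The ratio of mean shares to day 0 was 0.866, 0.85 and 0.807 at CT26 days 4, 8 and 11, and 0.705, 0.656 and 0.692 at the same B16 days. Each comparison with day 0 gave an exact 2-sided permutation p of 0.1, the smallest that these numbers of libraries allow, and comparisons among later days gave 0.4 to 0.7. Without Mrpl33 the mean share in CT26 was 0.0588% at day 0 and 0.0499%, 0.0471% and 0.0435% at days 4, 8 and 11. In B16 it was 0.0988% at day 0 and 0.0699%, 0.0687% and 0.0662% at the same later days. The lowest B16 mean was then at day 11, and with Mrpl33 at day 8. In bulk RNA, fewer cells of a type and less RNA per cell cannot be told apart.

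**Figure D1:**
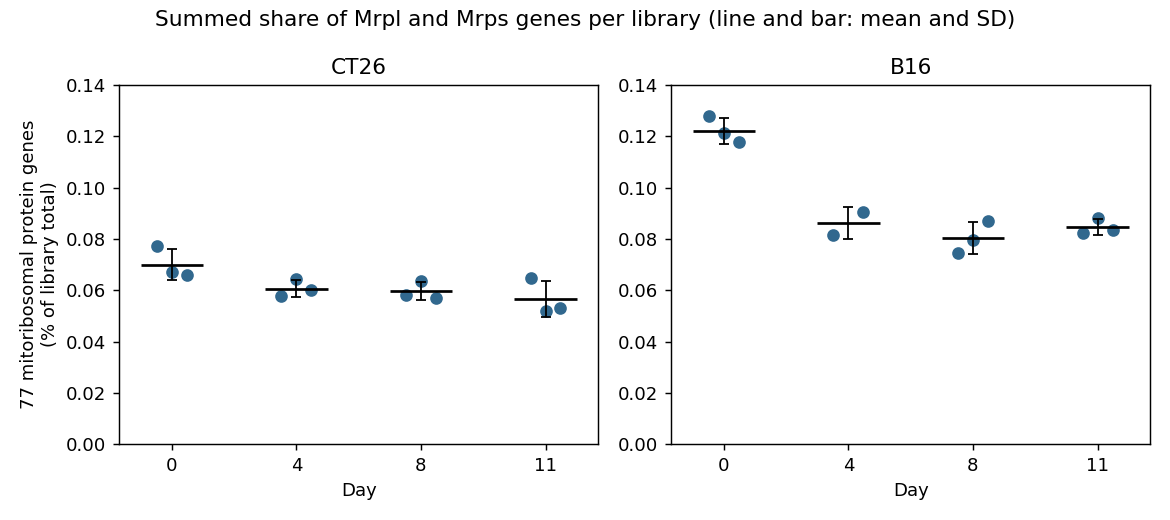
Summed share of the 77 Mrpl and Mrps genes in each library (vertical axis, percent of the library total) by day (horizontal axis) in CT26 and B16; points are libraries, lines and bars the mean and SD. In B16 all later libraries lie at 0.0906% or below and the day 0 libraries at 0.118% to 0.128%.

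In B16 the fall was spread over most of the family. At day 4 29 of 77 genes fell and none rose by limma, where 15.5% of all genes tested fell and 20.3% rose. At day 8 44 fell and 1 rose, against 27.3% and 28.6% of all genes. At day 11 40 fell and none rose, against 21.8% and 23.9% of all genes. At an unadjusted p under 0.05, 1 gene was higher at day 4 and 0 at day 11 by limma, edgeR and DESeq2 alike, and by adjusted p edgeR and DESeq2 also called 0 higher on these days. The median log2 fold change of the 77 genes was -0.43, -0.56 and -0.48 at days 4, 8 and 11, while the median of all genes tested was 0.01, -0.02 and -0.02. Fold changes lay below 0 in 70, 71 and 70 of the 77 genes. At day 8 all 3 libraries lay below all 3 day 0 libraries in 49 of the genes, which held for 32% of all genes. In all 53 of the 77 genes (68.8%) fell on at least 1 day, against 35.7% of all genes tested, and 20 (26%) fell on all 3, against 9.72%. On no day were 23 (29.9%) called, near the 30.3% of all genes.

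**Figure D2:**
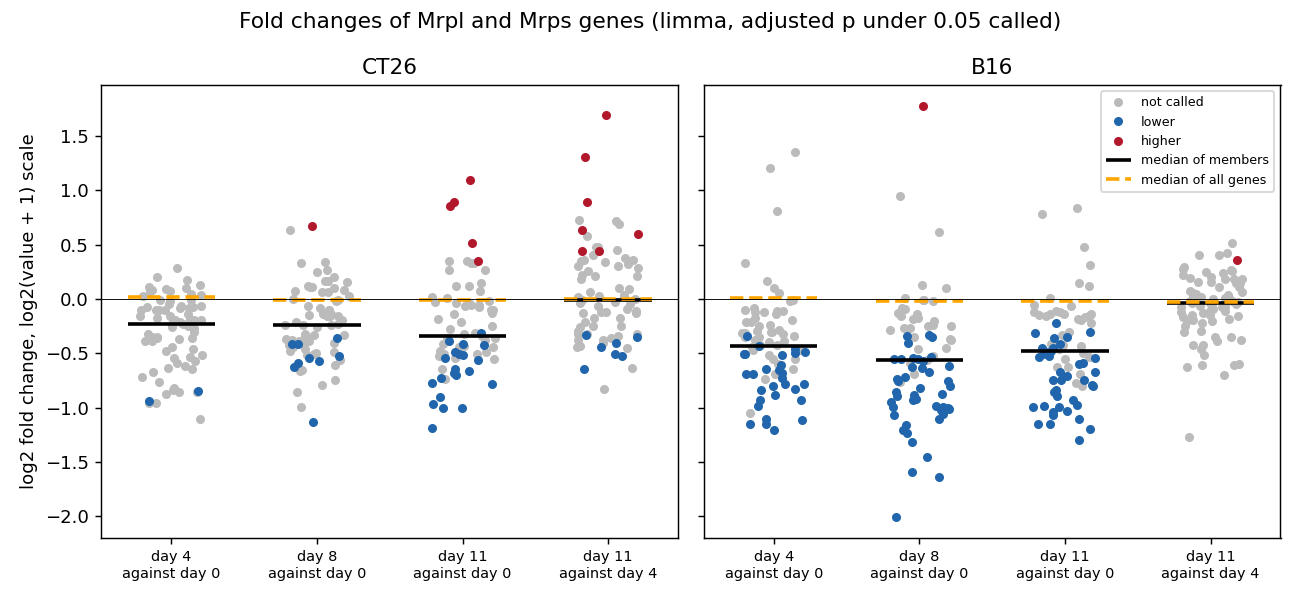
log2 fold change of each Mrpl and Mrps gene (points; blue fell, red rose, grey not called by limma) in 4 comparisons of each model; black lines are the medians of these genes and dashed orange lines those of all genes tested. The B16 medians lie at -0.43, -0.56 and -0.48 against day 0 and at -0.03 for day 11 against day 4.

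Several measures moved with the B16 result. Beside Rn45s, 8 platelet markers summed to 0.0186% to 0.0647% of day 0 libraries and to 0.184% to 0.516% at day 4, 0.169% to 0.41% at day 8 and 0.11% to 0.132% at day 11, and 9 B cell markers to 0.0172% to 0.0294% at the later days and 0.0323% to 0.0357% at day 0. The 7 eosinophil markers summed to 0.00317% to 0.00406% at day 0, 0.00493% to 0.00569% at day 4, 0.0147% to 0.0172% at day 8 and 0.00529% to 0.00616% at day 11, with Epx and Ear6 at 0 on every day but day 8. The 7 markers of non-classical monocytes took 0.115% to 0.118% at day 0, 0.127% to 0.13% at day 4, 0.189% to 0.225% at day 8 and 0.146% to 0.158% at day 11. Both lists were thus highest at day 8, the day with the most mitoribosomal genes called lower. The 8 erythroid markers stood at 0.00518% to 0.00544% at day 4 and at 0.000665% to 0.00103% on the other days, with Hbb-bt, Hba-a1 and Hba-a2 at 0 throughout. Markers of classical monocytes, 8 in number, were higher in every later library than at day 0, where they summed to 0.0576% to 0.0729%. They summed to 0.0776% to 0.0886% at day 4, 0.0799% to 0.0829% at day 8 and 0.0803% to 0.0838% at day 11. The part of these cell types in the fall of the mitoribosomal genes was not tested. Without day 4 replicate 1, the library with the most platelet transcripts, the median log2 fold change of the mitoribosomal genes at day 4 was -0.39. With both day 4 libraries it was -0.43. Fewer of these genes were called in that fit, with the remaining library assumed to vary like the other days. The share of all genes called in it is not given, so the drop cannot be set against a background.

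Among large-subunit genes with a bacterial counterpart, 12, 18 and 15 of 29 fell at B16 days 4, 8 and 11. Over all genes tested 15.5%, 27.3% and 21.8% fell on these days. Mrpl23 (chromosome 7, 142532467 to 142540747, plus strand), whose protein lines the opening of the exit tunnel, had 347, 288 and 333 normalized counts in the day 0 libraries, 173 and 127 at day 4, 99.3, 105 and 116 at day 8 and 149, 158 and 140 at day 11. Every later library lay below every day 0 library, and the day 8 libraries were the lowest. The log2 fold change was -1.11 ± 0.15 at day 4 (limma adjusted p = 0.000158), -1.59 ± 0.13 at day 8 (adjusted p = 1.28e-06) and -1.11 ± 0.13 at day 11 (adjusted p = 4.74e-05). In CT26 Mrpl23 was not called, with 3.82 to 27.1 normalized counts over the 12 libraries. Mrpl28 and Mrpl2 are counterparts of the bacterial large-subunit proteins L28 and L2. Mrpl28 averaged 45.3 ± 1.19 at day 8, against 109 ± 21.5 at day 0 (SD, n = 3 each), a log2 fold change of -1.23 ± 0.18 (limma adjusted p = 0.000109). Mrpl2 had its largest fall at day 11, where it averaged 37.3 ± 4.81, against 94.6 ± 24.6 at day 0 (SD, n = 3 each; log2 -1.30 ± 0.26, limma adjusted p = 0.00156).

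Mrpl12, a protein of the stalk that recruits translation factors, fell at B16 day 4 and day 11. It had 32.2, 37.9 and 71.7 normalized counts at day 0, 20.2 and 17.5 at day 4, 27.2, 34.9 and 26.2 at day 8 and 23.9, 24.7 and 27.4 at day 11. The groups overlapped at day 8 alone, and the day 0 libraries were themselves far apart. Its log2 fold change of -1.20 ± 0.32 at day 4 was the largest fall of the family that day (limma adjusted p = 0.0114), and that at day 11 was -0.79 ± 0.29 (adjusted p = 0.0399). Leaving out single libraries took the day 11 call away in 6 of the 11 cases and the day 4 call in 1. Mrpl19 and Mrpl21, both with bacterial counterparts, also fell at day 4, with log2 fold changes of -1.10 ± 0.28 and -0.98 ± 0.35 (limma adjusted p = 0.00816 and 0.043). The call of Mrpl21 was lost in 9 of the 11 cases with a library left out. At day 11 Mrpl47, the family's lowest gene per length, averaged 6.52 ± 0.994 normalized counts, against 16.2 ± 2.27 at day 0 (SD, n = 3 each), a log2 fold change of -1.20 ± 0.36 (limma adjusted p = 0.016).

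Among small-subunit genes with a bacterial counterpart, 7, 11 and 10 of 16 fell at B16 days 4, 8 and 11. The shares of all genes that fell were 15.5%, 27.3% and 21.8%. Mrps12 (chromosome 7, 28739641 to 28741821, minus strand), which lies at the decoding centre where codons are read, had 175, 188 and 180 normalized counts at day 0, 101 and 88.2 at day 4, 69.6, 71.6 and 74.4 at day 8 and 80, 95.8 and 69 at day 11. No later library came near the day 0 libraries. Its log2 fold changes were -0.93 ± 0.16, -1.32 ± 0.14 and -1.15 ± 0.14 (limma adjusted p = 0.000716, 8.1e-06 and 5.2e-05). In CT26 Mrps12 was not called, and its log2 fold change at day 11 was -0.04 ± 0.26. Mrps15, which binds the ribosomal RNA early in assembly in bacteria, had 797, 849 and 916 normalized counts at B16 day 0, 436 and 491 at day 4, 441, 432 and 504 at day 8 and 555, 605 and 626 at day 11. It was the one gene of the family that rose at day 11 against day 4 (log2 0.36 ± 0.10, limma adjusted p = 0.0386), where 5.72% of all genes rose and 4.42% fell, 10.1% in all, and that call was lost in 6 of the 11 cases with a library left out.

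Mrps18a, Mrps18b and Mrps18c are 3 paralogs related to bacterial S18, of which Mrps18c takes its place in the small subunit, Mrps18b sits elsewhere in that subunit and Mrps18a in the large one. Mrps18b fell by 1.15, 1.63 and 0.89 on the log2 scale at days 4, 8 and 11 (SE 0.36, 0.32 and 0.32; limma adjusted p = 0.0248, 0.00091 and 0.0393), and leaving out single libraries ended the day 11 call in 7 of 11 cases (adjusted p up to 0.0954) and the day 4 call in 3 (up to 0.0939). Its day 8 libraries had 5.94, 12.2 and 16.1 normalized counts, against 37.1, 33.8 and 34.2 at day 0. Mrps18c fell by 0.51, 0.67 and 0.36 (SE 0.12, 0.11 and 0.11; limma adjusted p = 0.00479, 0.00016 and 0.014). Mrps18a was called at day 11 alone, at -0.54 ± 0.19 (limma adjusted p = 0.0342; lost in 4 of 11 cases with a library left out), and had -0.55 ± 0.21 and -0.46 ± 0.19 at days 4 and 8 (adjusted p = 0.0593 and 0.053). None of the 3 was called in CT26 against day 0, and the differences between the paralogs were not tested.

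Genes without a bacterial counterpart fell as well in B16, 5, 9 and 9 of 20 in the large subunit and 5, 6 and 6 of 10 in the small one at days 4, 8 and 11. Falls over all genes tested made up 15.5%, 27.3% and 21.8%. Mrpl43, Mrpl45, Mrpl51 and Mrpl54 of the large subunit and Mrps18b, Mrps26, Mrps33 and Mrps35 of the small subunit fell on all 3 days. Mrps18b is counted in this group although it is related to bacterial S18, whose place Mrps18c takes. Mrpl43 had 1077, 1016 and 982 normalized counts at day 0, 687 and 839 at day 4, 558, 583 and 620 at day 8 and 698, 775 and 731 at day 11. Its day 8 libraries lay below those of every other day (log2 -0.80 ± 0.08 against day 0, limma adjusted p = 6.74e-06). Mrpl44, whose protein has a fold of the ribonuclease III kind, averaged 58.1 ± 14.9 at day 11, against 124 ± 47.1 at day 0 (SD, n = 3 each; log2 -1.04 ± 0.25, limma adjusted p = 0.00446). Mrpl41 fell at day 8 and day 11, by 0.93 and 0.59 on the log2 scale (SE 0.14 for both; limma adjusted p = 0.000151 and 0.00549). Mrps34 fell at days 4 and 11, by 0.64 and 0.71 (SE 0.21 and 0.19; limma adjusted p = 0.0343 and 0.00971), the day 4 call being lost in 4 of 11 cases with a library left out. In the reference 63.4% of the exonic bases of Mrps34 overlap Mapk8ip3 on the other strand and 37% overlap Nme3 on the same strand, and the strandedness of the counting is not given in the sources used here, so its reads may be shared with those genes.

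Mrps31, a small-subunit gene without a bacterial counterpart, was the one gene that rose against day 0 in B16. At day 8 it had 21.2, 26.2 and 15.2 normalized counts, against 1.24, 5.13 and 16.6 at day 0. The groups overlapped, and the call (log2 1.78 ± 0.60, limma adjusted p = 0.0232) was lost in 4 of the 11 cases with a library left out. Mrps30, which sits in the large subunit, was not called in B16, with -0.24 ± 0.24, -0.02 ± 0.22 and -0.53 ± 0.22 at days 4, 8 and 11. Mrps36, whose protein is counted with 2-oxoglutarate dehydrogenase, was called against day 0 on no day in either model, and its B16 log2 fold changes lay between -0.17 and -0.06.

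**Figure D3:**
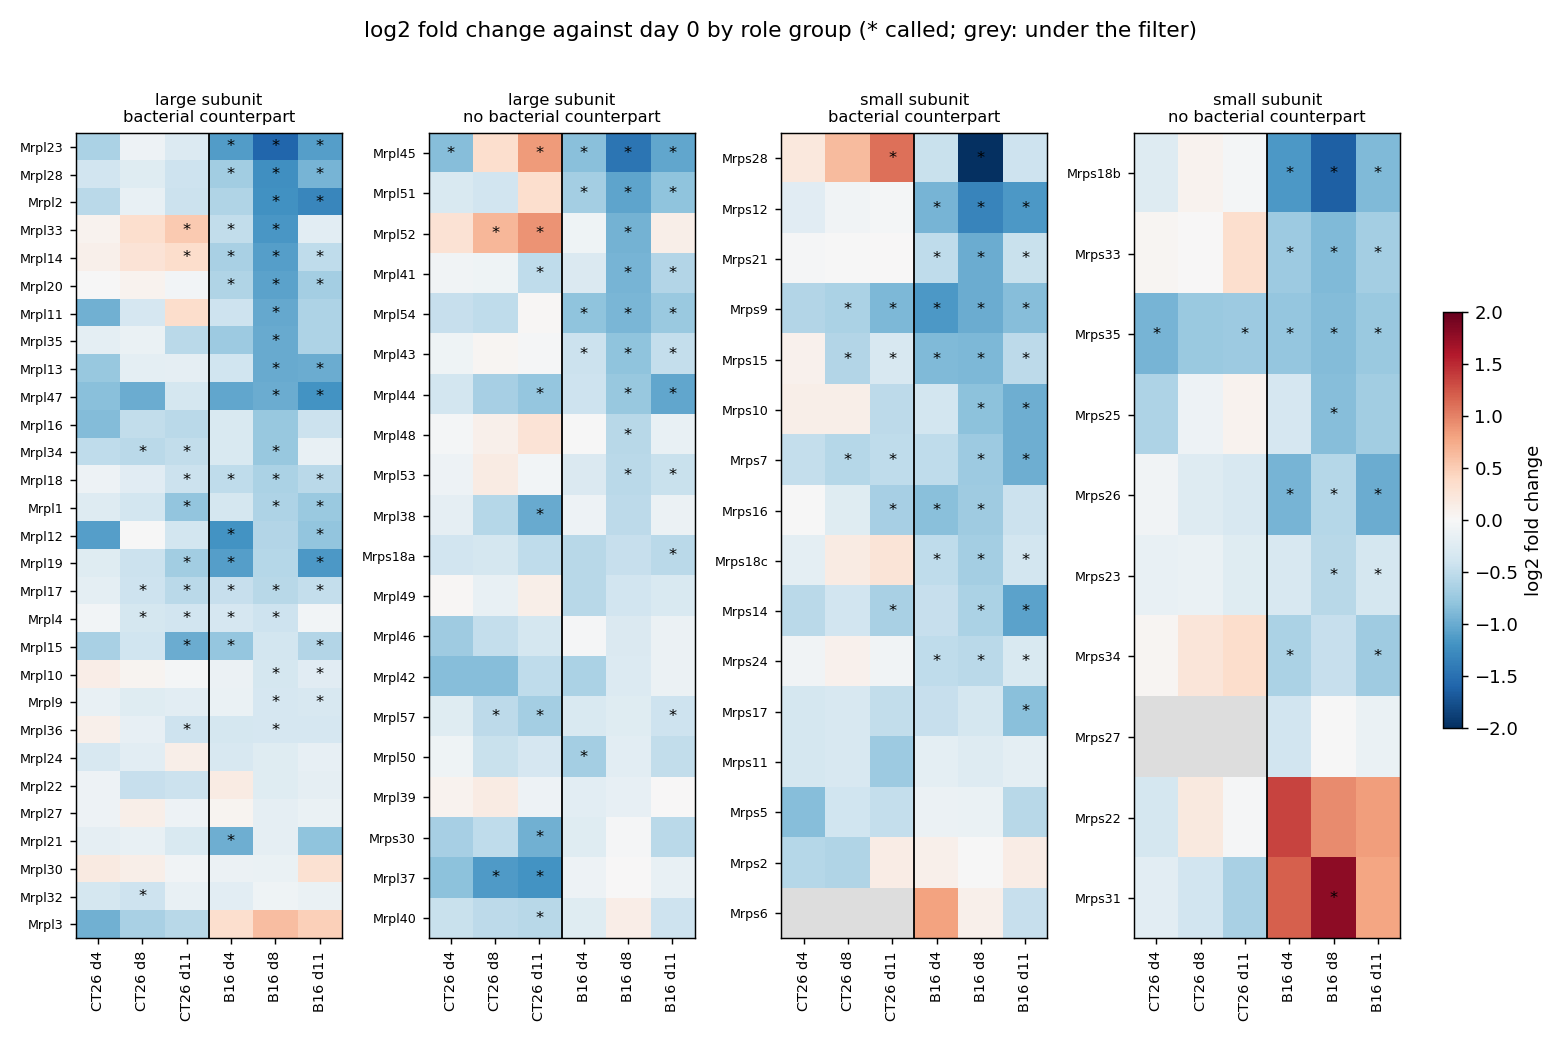
Heat map of log2 fold changes against day 0 for each gene (rows, sorted by the B16 day 8 value) in 4 role groups, with columns for CT26 and B16 days 4, 8 and 11; blue is lower, red higher, stars mark limma calls and grey genes under the filter. Mrpl55 and Mrps36 are in no role group. In B16 12, 18 and 15 of 29 large-subunit genes with a bacterial counterpart fell at days 4, 8 and 11. Of all genes tested 15.5%, 27.3% and 21.8% fell.

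Day 8 was the lowest day for 41 of the 77 genes in B16, and some of these genes were higher again at day 11. The share of all genes with their lowest day at day 8 was not counted. In comparisons added after the data were seen, 11 genes fell and none rose at day 8 against day 4, where 14.1% of all genes fell and 12.7% rose, and 14 rose and 2 fell at day 11 against day 8, where 18.7% rose and 17.4% fell. The 11 falls and the 14 rises are near their background shares. After scaling all libraries to one common total, the split at day 11 against day 8 was 5 higher and 9 lower, a scaling that moved the median of all genes to -0.31. Of all 11944 genes 5508 were called in that fit. At day 8 against day 4 the same scaling gave 1 higher and 5 lower, where 3598 of all 11944 genes were called. It moved the median of the mitoribosomal genes there to 0.010 and that of all genes to 0.14. Mrps28, a small-subunit protein counted with bacterial counterparts, showed the deepest dip. It had 63.1, 61.5 and 109 normalized counts at day 0, 43.1 and 70.7 at day 4, 20.4, 14 and 20.3 at day 8 and 60.9, 64.2 and 44.9 at day 11. The day 8 libraries lay below every other B16 library. Its log2 fold change was -2.01 ± 0.28 at day 8 against day 0 (limma adjusted p = 6.92e-05) and 1.59 ± 0.28 at day 11 against day 8 (adjusted p = 0.000988).

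Mrpl52 and Mrpl33, large-subunit genes, were also lowest at day 8 in B16. Mrpl52 had 130, 111 and 124 normalized counts at B16 day 0, 102 and 128 at day 4, 61.1, 70.7 and 55.8 at day 8 and 124, 145 and 126 at day 11. At day 8 its libraries were below all others and at day 11 they overlapped with those of day 0 (log2 1.07 ± 0.15 at day 11 against day 8, limma adjusted p = 0.00016, and 0.12 ± 0.15 at day 11 against day 0, adjusted p = 0.547). Mrpl33 had 3330, 3106 and 3124 normalized counts at day 0, 2044 and 2523 at day 4, 1232, 1437 and 1623 at day 8 and 2556, 2989 and 2702 at day 11. It fell by 1.16 at day 8 against day 0 on the log2 scale (SE 0.10, limma adjusted p = 1.79e-06) and rose by 0.95 at day 11 against day 8 (SE 0.10, adjusted p = 2.73e-05). Mrpl14, Mrpl34, Mrps21, Mrpl23, Mrpl48, Mrpl20, Mrps15, Mrpl4, Mrpl43 and Mrps18c were likewise called lower in one comparison of B16 and higher in another. Mrps17 and Mrps26 fell at day 11 against day 8, by 0.49 and 0.42 on the log2 scale (SE 0.17 and 0.15; limma adjusted p = 0.0376 and 0.0403), and each call was lost in 5 of 11 cases with a library left out.

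**Figure D4:**
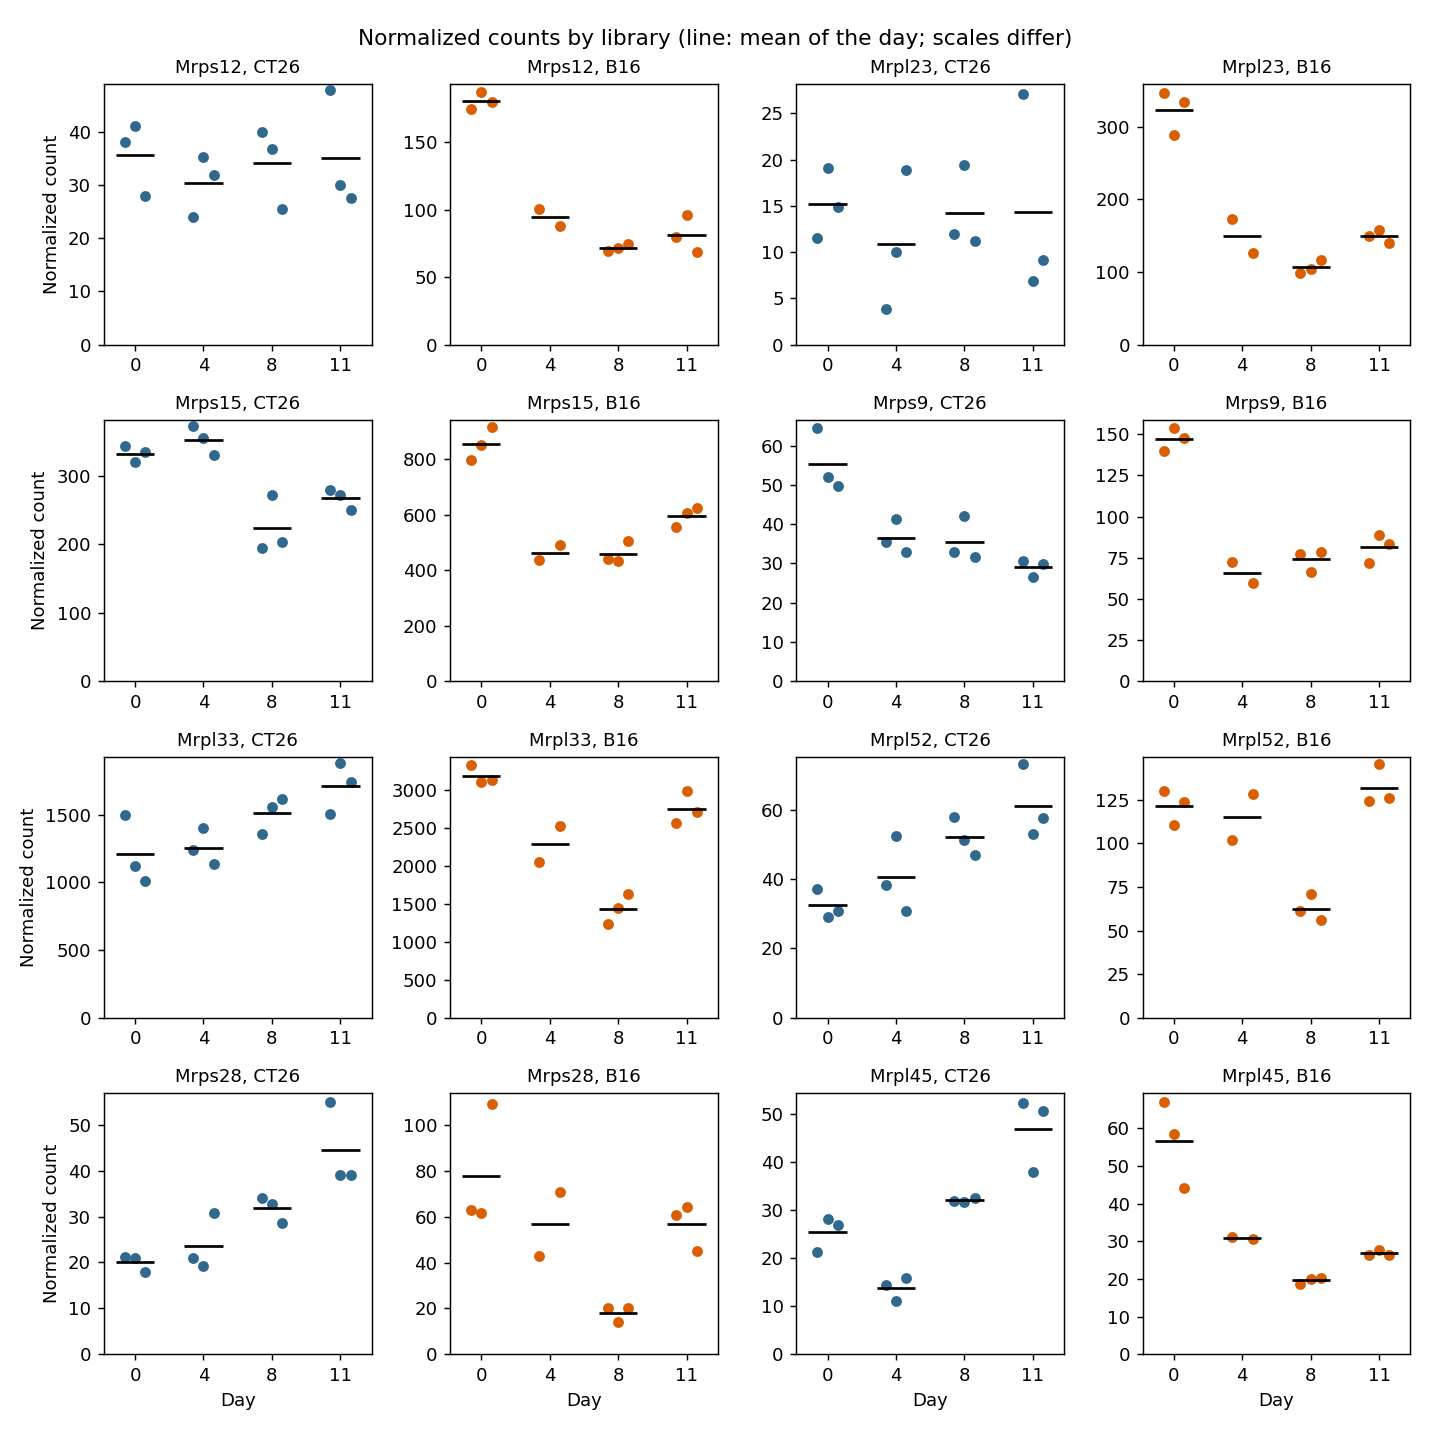
Normalized counts of 8 genes in each library (points) by day, with the mean of the day as a line, in CT26 (blue) and B16 (orange); vertical scales start at 0 and differ between panels, and levels are not comparable between models. Mrps12, Mrpl23, Mrps15 and Mrps9 fell in B16 on all 3 days, while Mrpl33, Mrpl52, Mrps28 and Mrpl45 rose in CT26 at day 11.

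In CT26 most of the genes had values below day 0 and few were called. At day 4 2 of 75 genes fell and none rose by limma, where 4.46% of all genes fell and 6.4% rose. At day 8 9 fell and 1 rose, against 11.8% and 15.1% of all genes, and at day 11 21 fell and 5 rose, against 24% and 26.3%, or 50.3% in either direction. The share of the family that fell at day 11 was near that of all genes, and the share that rose was below it. The median log2 fold change was -0.23, -0.24 and -0.34 at days 4, 8 and 11, against 0.02, -0.01 and -0.01 for all genes, with 62, 55 and 58 of 75 genes below 0. On at least 1 day 23 of the 75 genes (30.7%) fell, against 26.3% of all genes, and none fell on all 3 days, against 2.91%. On no day were 48 (64%) called, against 45.5% of all genes. Without day 11 replicate 1, 7 genes fell at day 4, 14 fell and 3 rose at day 8, and 34 fell and 5 rose at day 11. Without some of the other libraries the numbers called were lower. At day 4 limma called 0 without day 0 replicate 2 or 3, or day 4 replicate 1 or 2. At day 8 it called 2 without day 8 replicate 3, and at day 11 14 without day 11 replicate 3. Shares of all genes called in these fits with a library left out are not given here, so their counts have no background beside them. At an unadjusted p under 0.05 with all libraries, limma had 18 lower and 0 higher at day 4. On the recovered reads of 8 CT26 libraries edgeR called 0 and 13 at days 8 and 11, and DESeq2 0 and 2. Among all 11373 genes edgeR called 1417 and 4310 on these days, and DESeq2 1267 and 3385. At an unadjusted p under 0.05 edgeR had 3 and 9 lower at days 4 and 8, DESeq2 1 on each of these days, and neither had any higher.

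Markers of other cell types moved with day in CT26 as well. The 8 tissue macrophage markers summed to 0.00249% to 0.0074% of the day 8 libraries and to at most 0.000102% at day 0, where C1qa and Marco were at 0 in all 3. The 9 B cell markers summed to 0.00259% to 0.0058% at day 11 and 0.0257% to 0.0276% at day 0. The 7 eosinophil markers summed to 0.00613% to 0.00867% at day 11 and 0.0479% to 0.0522% at day 0. The 7 markers of non-classical monocytes summed to 0.158% to 0.179% at day 11 and 0.243% to 0.278% at day 0, and the 10 T cell markers to 0.00198% to 0.0021% at day 11 and 0.00431% to 0.00487% at day 0. The 7 progenitor and promyelocyte markers summed to 0.00221% to 0.00305% at day 11 and 0.000231% to 0.00027% at day 0, with Ctsg at 0 on both days. The part of these cell types in the changes of the mitoribosomal genes was not tested.

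At CT26 day 11 15 of 50 large-subunit genes tested and 6 of 24 small-subunit genes fell, against 24% of all genes tested. Mrpl37, a large-subunit gene without a bacterial counterpart, had 30.1, 41 and 38.8 normalized counts at day 0, 16.2, 28.2 and 17.9 at day 4, 17, 23.5 and 10.2 at day 8 and 22.6, 12.7 and 12.6 at day 11. All later libraries lay below those of day 0 (log2 -1.13 ± 0.33 at day 8, limma adjusted p = 0.0175, and -1.19 ± 0.33 at day 11, adjusted p = 0.00685). The day 8 call was lost in 3 of 12 cases with a library left out. Mrpl38, Mrpl15 and Mrps30 also fell at day 11, by 1.01, 1.00 and 0.96 on the log2 scale (SE 0.38, 0.30 and 0.25; limma adjusted p = 0.0365, 0.01 and 0.00397). Mrpl38 had 26.2 normalized counts in day 11 replicate 1 and 6.9 and 9.2 in the other libraries of that day, and its call was lost in 4 of 12 cases with a library left out. Mrps9, a small-subunit protein with a bacterial counterpart, had 64.6, 51.9 and 49.7 normalized counts at day 0, 35.3, 41.3 and 32.8 at day 4, 33, 41.9 and 31.6 at day 8 and 30.7, 26.5 and 29.9 at day 11. The later libraries did not overlap with day 0, and it fell at day 8 and day 11 (log2 -0.63 ± 0.20 and -0.90 ± 0.20, limma adjusted p = 0.0266 and 0.00123), with the day 8 call lost in 4 of 12 cases. Mrpl1 fell by 0.78 on the log2 scale at day 11 (SE 0.18, limma adjusted p = 0.00173). Mrps35 fell at day 4 with Mrpl45 (log2 -0.93 ± 0.28, limma adjusted p = 0.0446), a call lost in 8 of 12 cases with a library left out.

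At day 11 against day 4 in CT26, 7 genes rose and 7 fell, where 19.8% of all genes rose and 18.1% fell. The genes that fell included Mrps16 (log2 -0.64 ± 0.17, limma adjusted p = 0.0062), Mrpl36, Mrpl57, Mrps15 and Mrpl17, and those that rose Mrpl45, Mrpl11 (log2 1.31 ± 0.40, limma adjusted p = 0.0165), Mrps28 and Mrpl51. Mrpl11 had 30.7 normalized counts in day 11 replicate 1 and 11.5 in each of the other libraries of that day, and without replicate 1 it was not called (log2 0.86, adjusted p = 0.082). Several of the other calls rested on single libraries too. With a library left out, Mrpl17 lost its call in 7 of 12 cases (adjusted p up to 0.213), Mrpl51 in 5, Mrpl57 in 4 and Mrpl36 in 1. Mrpl1, which also fell, lost it in 3, and Mrpl52 and Mrpl33, which also rose, in 4 and 1. At day 8 against day 4, a comparison added after the data were seen, Mrpl45 rose and Mrps15 fell, where 7.42% of all genes rose and 5.96% fell. At day 11 against day 8, added likewise, Mrpl51 was the one gene called (log2 0.72 ± 0.23, limma adjusted p = 0.0379; lost in 7 of 12 cases with a library left out), where 10.9% of all genes rose and 9.94% fell.

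The 5 genes that rose at CT26 day 11 were Mrps28, Mrpl52, Mrpl45, Mrpl33 and Mrpl14, and all 5 were among the genes that fell on some day in B16, as were 33.9% of all genes that rose at CT26 day 11 and were tested in B16. Mrpl45 (chromosome 11, 97314923 to 97329920, plus strand) is known to tether the mitoribosome to the inner membrane near the exit of the tunnel. In CT26 it had 21.2, 28.2 and 26.9 normalized counts at day 0, 14.3, 11.1 and 15.9 at day 4, 32, 31.7 and 32.6 at day 8 and 52.3, 38 and 50.6 at day 11. No group overlapped with another, and it was the one gene of the family called in opposite directions within CT26. It fell at day 4 (log2 -0.84 ± 0.23, limma adjusted p = 0.028, lost in 4 of 12 cases with a library left out) and rose at day 11 (log2 0.86 ± 0.23, adjusted p = 0.00555), with 1.70 ± 0.23 between day 11 and day 4 (adjusted p = 1.89e-05). In B16 the same gene had 66.9, 58.5 and 44.2 normalized counts at day 0, 31.2 and 30.6 at day 4, 18.7, 20.1 and 20.3 at day 8 and 26.3, 27.7 and 26.3 at day 11, all later libraries lying below day 0 (log2 -1.46 ± 0.21 at day 8, limma adjusted p = 9.18e-05).

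Mrps28 in CT26 had 21.2, 20.9 and 17.9 normalized counts at day 0, 21, 19.1 and 30.8 at day 4, 34, 32.7 and 28.6 at day 8 and 55, 39.1 and 39.1 at day 11. The day 8 and day 11 libraries lay above those of day 0 (log2 1.10 ± 0.24 at day 11, limma adjusted p = 0.00109). Mrpl52 rose at day 8 and day 11 (log2 0.67 ± 0.21 and 0.89 ± 0.21, limma adjusted p = 0.0278 and 0.00241; the day 8 call was lost in 4 of 12 cases with a library left out), with 37.1, 29.1 and 30.8 normalized counts at day 0, 38.2, 52.3 and 30.8 at day 4, 58, 51.1 and 46.9 at day 8 and 73.1, 52.9 and 57.5 at day 11. The smaller rises at day 11, Mrpl33 with 0.52 ± 0.13 and Mrpl14 with 0.35 ± 0.11 (limma adjusted p = 0.003 and 0.014), were not called after scaling all libraries to one common total, nor was that of Mrpl45. That scaling moved the median of all genes at CT26 day 11 to -0.29 and gave 2 higher and 36 lower in place of 5 and 21. Of all 11399 genes 6357 were called after it. The difference between the models was not tested for any gene.

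Lower calls in both models at some day were found for 18 of the 75 genes tested in both (24%), against 10.5% of all genes tested in both. They are 18 of the 23 that fell in CT26 (78.3%, against 39.5% over all genes) and 18 of the 53 that fell in B16 (34%, against 29.8%). At day 11 the genes that fell in both numbered 13 (17.3%, against 6.78% of all genes). They made up 61.9% of the 21 that fell in CT26 that day, against 28% over all genes, and 32.5% of the 40 that fell in B16, near the 32.7% over all genes. These shares are a description with no test. The 13 genes were Mrpl1, Mrpl15, Mrpl17, Mrpl18, Mrpl19, Mrpl41, Mrpl44, Mrpl57, Mrps7, Mrps9, Mrps14, Mrps15 and Mrps35. Mrps14, for example, fell by 1.07 on the log2 scale in B16 (SE 0.20, limma adjusted p = 0.00113) and by 0.64 in CT26 (SE 0.22, adjusted p = 0.0212). Mrps7 fell by 0.97 in B16 and 0.51 in CT26 (SE 0.21 and 0.20; limma adjusted p = 0.00283 and 0.0474), and shares short exonic stretches with Gga3 and Mif4gd on the other strand. Of all 77 genes 20 share exonic bases with a coding gene in the tables, 17 of them on the opposite strand only.

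Other mitoribosomal proteins have names without the prefix. Of 6 such genes 4, 3 and 4 fell and none rose at B16 days 4, 8 and 11, and 0, 1 and 0 fell in CT26, where Dap3 rose at day 11. Over all genes tested 15.5%, 27.3% and 21.8% fell in B16 and 4.46%, 11.8% and 24% in CT26. Aurkaip1, a small-subunit protein, had 1413 to 1625 normalized counts at B16 day 0, 958 and 1079 at day 4, 732 to 846 at day 8 and 1034 to 1132 at day 11, no later library reaching day 0. It fell by 0.56, 0.94 and 0.47 on the log2 scale (SE 0.09, 0.08 and 0.08; limma adjusted p = 0.000475, 1.28e-06 and 0.000559). Gadd45gip1, a large-subunit protein, fell by 1.05 at B16 day 8 (SE 0.26, limma adjusted p = 0.00377), and Ict1, the ribosome rescue factor built into the large subunit, by 1.29 at day 4 (SE 0.29, adjusted p = 0.00422).

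Beside the ribosome itself, translation in mitochondria needs factors that start, lengthen, end and recycle. Of 12 translation factors tested, 1, 3 and 2 fell and 2, 1 and 1 rose at B16 days 4, 8 and 11, and 0, 1 and 4 fell and none rose in CT26. Over all genes tested 15.5%, 27.3% and 21.8% fell and 20.3%, 28.6% and 23.9% rose on these days in B16. For CT26 the shares of all genes were 4.46%, 11.8% and 24% lower and 6.4%, 15.1% and 26.3% higher. Mtif2, the initiation factor that brings the first transfer RNA to the ribosome, fell at all 3 B16 days, with 40.5 to 51.4 normalized counts at day 11, against 113 to 147 at day 0 (log2 -1.52 ± 0.16, limma adjusted p = 1.49e-05). Mrrf, the recycling factor, rose at B16 day 8 (log2 1.77 ± 0.51, limma adjusted p = 0.0102). Tufm, the elongation factor that delivers transfer RNA, fell at CT26 day 11, with 73.1, 41.4 and 27.6 normalized counts, against 87.4 to 106 at day 0 (log2 -1.12 ± 0.27, limma adjusted p = 0.0024).

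Of the factors that assemble the mitoribosome, 22 were tested in B16 and 21 in CT26. At days 4, 8 and 11, 3, 7 and 8 fell and 0, 3 and 0 rose in B16, and 0, 4 and 8 fell and 0, 3 and 3 rose in CT26. Beside them, 15.5%, 27.3% and 21.8% of all genes fell and 20.3%, 28.6% and 23.9% rose in B16. In CT26 4.46%, 11.8% and 24% of all genes fell and 6.4%, 15.1% and 26.3% rose. Mettl17, needed to mature the small subunit, fell in both models, with 14.2 to 30.6 normalized counts at B16 day 11, against 52.3 to 56.3 at day 0 (log2 -1.26 ± 0.26, limma adjusted p = 0.00203), and 18.4 to 20.7 at CT26 day 11, against 50.7 to 55.7 at day 0 (log2 -1.42 ± 0.22, adjusted p = 4.24e-05). Ddx28, an RNA helicase of large-subunit assembly, rose at CT26 day 11, with 103 to 153 normalized counts, against 21.9 to 31.9 at day 0 (log2 2.19 ± 0.25, limma adjusted p = 1.35e-06). Gtpbp10, a GTPase of large-subunit maturation, fell at B16 day 11 (log2 -1.93 ± 0.37, limma adjusted p = 0.00127).

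Mitochondrial aminoacyl-tRNA synthetases, which charge the transfer RNAs, were mostly not called, with 4, 3 and 1 of 18 lower and 0, 3 and 0 higher at B16 days 4, 8 and 11, and 1, 1 and 6 of 17 lower and 1 higher on each day in CT26. The all-gene shares were 15.5%, 27.3% and 21.8% lower and 20.3%, 28.6% and 23.9% higher in B16. They were 4.46%, 11.8% and 24% lower and 6.4%, 15.1% and 26.3% higher in CT26. Nars2, the asparagine enzyme, rose in CT26, with 2.98 to 6.37 normalized counts at day 0, 15.1 to 19.9 at day 4, 16.4 to 19.4 at day 8 and 188 to 235 at day 11 (log2 5.24 ± 0.26 at day 11, limma adjusted p = 6.59e-11). In B16 Nars2 had at most 6.57 in any library. Lars2, the leucine enzyme, fell in B16, with 4826 to 5569 normalized counts at day 8, against 51581 to 61174 at day 0 (log2 -3.38 ± 0.11, limma adjusted p = 9.38e-09). Rn45s moved in the same libraries, with 53489 to 65093 at day 8, against 346423 to 427885 at day 0, and the relation of the 2 genes was not tested.

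Among the regulators of mitochondrial gene expression 1, 5 and 2 of 15 fell and 2, 4 and 2 rose at B16 days 4, 8 and 11, and 0, 1 and 4 fell and 0, 0 and 2 rose in CT26. As background, 15.5%, 27.3% and 21.8% of all genes fell and 20.3%, 28.6% and 23.9% rose in B16. In CT26 these shares were 4.46%, 11.8% and 24% lower and 6.4%, 15.1% and 26.3% higher. Of the genes for the GABP complex, an ETS family factor, Gabpa and Gabpb2 rose at B16 day 8 and Gabpb1 fell. Gabpa had a log2 fold change of 0.75 ± 0.09 (limma adjusted p = 3.11e-05), Gabpb2 of 0.27 ± 0.10 (adjusted p = 0.0361) and Gabpb1 of -0.62 ± 0.07 (adjusted p = 1.1e-05). Yy1 rose at every later B16 day, by 0.43 ± 0.06 at day 8 (limma adjusted p = 0.000108). Esrra, a nuclear receptor that drives mitochondrial genes, fell at every later B16 day, by 0.84 on the log2 scale at day 8 (SE 0.09, limma adjusted p = 5.16e-06). Tfam, which packages and transcribes mitochondrial DNA, fell at CT26 day 11, with 18.4 to 29.8 normalized counts, against 56.4 to 62.7 at day 0 (log2 -1.31 ± 0.24, limma adjusted p = 0.000211).

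Genes of other parts of the translation and respiration machinery fell in B16 too. Of 78 cytosolic ribosomal protein genes tested 74, 73 and 64 fell at B16 days 4, 8 and 11, with medians of -0.94, -0.87 and -0.57, and of 78 nuclear genes of the respiratory chain and ATP synthase 43, 53 and 51 fell, with medians of -0.40, -0.59 and -0.41. In CT26 48, 27 and 46 of 78 cytosolic ribosomal protein genes and 1, 7 and 14 of 77 respiratory genes fell. The shares of all genes that fell on these days were 15.5%, 27.3% and 21.8% in B16 and 4.46%, 11.8% and 24% in CT26. Differences between these groups of genes were not tested. Mitochondrially encoded genes, whose messages the mitoribosome translates, are not analysed here.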

How the data were processed

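The deposited tables hold signal that the authors normalized, with a table for each tumour model and a column for each library. The submitters' processing notes list HTSeq 0.6.1p1, TopHat2 2.0.10, cutadapt, DESeq2 1.6.3 and build mm10, without their roles. The annotation is not given in the sources used here, nor is the strandedness. In every library 100% of values were whole multiples of a single step (tolerance 0.001). That step was taken as the value of 1 read in 11 B16 and 8 CT26 libraries. In CT26 day 0 replicate 3, day 4 replicates 2 and 3 and day 8 replicate 1, where it lay nearest to 1, it was not accepted as such.

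Each model was fitted with limma 3.58.1 (trended variance, R 4.3.3) to log2(value + 1), using day as a factor. Genes entered with a mean of 5 or more, which left 11373 genes for CT26 and 11930 for B16. Tests were two-sided, p-values were adjusted by the Benjamini-Hochberg method, and 0.05 was the threshold. The scripts were checked on simulated data. edgeR 4.0.16 and DESeq2 1.42.0 ran on the reads so recovered. Other alternatives were the scaling, the pseudocount (0.5 and 5), the filter, the trend, a replicate block, fits of the compared days only and leaving out each library.

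The members and lists were chosen with earlier results of these data known. Named members are the 6 called with the largest change per direction and comparison, 10 listed by name, the highest and lowest per length, and those called in opposite directions; of each other list, up to 3 called genes. Mrpl18, Mrpl20, Mrpl43, Mrpl54, Mrps33, Aurkaip1, Gabpb1, Gabpb2, Mrpl3, Mrps2, Yy1 and Rn45s were named after their values were seen. Start sites and promoters are from RefSeq (GRCm38.p6), lengths and overlaps from GENCODE on GRCm38, which is mm10. Figures used matplotlib 3.10.9 with python 3.11.15.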

Additional observations from a re-analysis of the deposited data

Results flagged for a closer look

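In the following genes every library of one tumour model lay above, and every library of the other below, its own day 0 libraries. The difference between the models was not tested, and the models also differ in mouse strain and in normalization. For background, at day 8 24.1% of all genes tested lay wholly above day 0 in CT26 and 32% wholly below in B16. At day 11 these shares were 27.4% and 27.2%. In the other orientation, 23.3% lay below in CT26 and 31.3% above in B16 at day 8, and 18.1% and 29.4% at day 4. The share of all genes that met both conditions was not counted. Mrpl14 had a log2 fold change of 0.27 in CT26 and -1.10 in B16 at day 8, and of 0.35 in CT26 and -0.50 in B16 at day 11. Mrpl33 had 0.52 in CT26 and -0.22 in B16 at day 11. Mrpl45 had 0.33 in CT26 and -1.46 in B16 at day 8, and 0.86 in CT26 and -1.03 in B16 at day 11. Mrpl52 had 0.67 in CT26 and -0.95 in B16 at day 8. Mrps28 had 0.64 in CT26 and -2.01 in B16 at day 8. Mrpl3 and Mrps2 ran the other way. Mrpl3 had -0.65 in CT26 and 0.62 in B16 at day 8, and Mrps2 had -0.57 in CT26 and 0.10 in B16 at day 4, and limma called neither gene in either model on those days. The changes of Mrpl14 and Mrpl45 at CT26 day 8, of Mrps28 at CT26 day 8 and of Mrpl33 at B16 day 11 were not called by limma.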

How the results depend on the processing

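The counts of called genes at B16 days 4, 8 and 11 against day 0 (29, 45 and 40) kept within 1.5 times under every alternative, except for 13 at day 4 without day 4 replicate 1. With single libraries left out they ranged from 13 to 30, 38 to 46 and 33 to 41. The CT26 counts (2, 10 and 26) depended on single libraries, ranging from 0 to 7, 2 to 17 and 14 to 39. Leaving out day 11 replicate 1 gave the highest value each time. At day 4 the count was 0 without day 0 replicate 2 or 3 or day 4 replicate 1 or 2, and 1 without day 0 replicate 1 or any day 8 library. At day 8 it was 2 without day 8 replicate 3, 4 without day 0 replicate 2 or 3, 5 without day 8 replicate 1, and 6 without day 0 replicate 1 or day 8 replicate 2. At day 11 it was 14 without day 11 replicate 3 and 15 without day 0 replicate 1 or 2. CT26 day 11 against day 4 (14) ranged from 9, without day 4 replicate 1 or 2, to 17, day 8 against day 4 (2) from 2 to 4, and day 11 against day 8 (1) from 0, without day 0 replicate 2, day 4 replicate 2 or day 8 replicate 1, to 5, with 2 without day 11 replicate 2. The 17, 4 and 5 are without day 11 replicate 1. For neither model is the share of all genes called with a library left out given, so such counts have no background beside them. B16 day 11 against day 4 (1) ranged from 0, without day 0 replicate 2, day 4 replicate 1, day 8 replicate 2 or any day 11 library, to 2, without day 0 replicate 3, day 8 against day 4 (11) from 6, without day 4 replicate 3 or day 8 replicate 1, to 14, and day 11 against day 8 (16) from 11 to 17. On recovered reads edgeR called 0, 0 and 13 at CT26 days 4, 8 and 11, then 2, 0 and 0 for day 11 against 4, 8 against 4 and 11 against 8, and DESeq2 0, 0, 2, 0, 0 and 0. The edgeR fit of CT26 day 4 rests on 1 day 4 library, assumed to vary like the others. Among all 11373 genes edgeR called 1417 and 4310 at CT26 days 8 and 11 and 996 for day 11 against 8. DESeq2 called 1267, 3385 and 814 of them there. Counts of mitoribosomal genes with no filter on low values were 0 at CT26 day 4, 6 at day 8 and 0 for day 11 against 8. Of all 17297 genes 1071, 2954 and 2189 were called there. With only the 2 days compared the mitoribosomal counts were 9 at CT26 day 4, 17 at day 8, 8 for day 11 against 4, 5 for 8 against 4 and 0 for 11 against 8. In B16 they were 0 for 11 against 4 and 5 for 8 against 4. All genes called in these CT26 fits numbered 2394 of 11247, 3949 of 11406, 3560 of 11304, 2598 of 11346 and 1471 of 11373. In the B16 fits they numbered 1103 of 11771 and 2419 of 11933. After scaling all libraries to one common total the mitoribosomal counts were 16 at CT26 day 8 and 2 for 11 against 8. In B16 they were 0 for 11 against 4 and 6 for 8 against 4. All genes called there were 3937 and 2513 of 11399 in CT26, and 1371 and 3598 of 11944 in B16. That scaling also reversed the median log2 fold change in B16, to 0.010 at day 8 against 4 and -0.18 at day 11 against 8, and moved the median of all genes to -0.18 at CT26 day 8 and -0.15 at B16 day 11. TMM factors gave 0 for CT26 day 11 against 8, and the fit without trend 0 for B16 day 11 against 4. Of all genes these fits called 2420 of 11379 and 598 of 11930. Same-numbered libraries did not clearly deviate together (r from -0.163 to 0.223 in CT26 and -0.107 to 0.226 in B16). No pairing by number was seen, and 2 or 3 libraries a day are too few to exclude it. The replicate block gave 1 at CT26 day 4, where 1090 of all 11373 genes were called, and moved no other count by over 1.5 times. The causes were not tested. Of the single-gene results under alternatives, 293 lost and 42 gained a call and 3725 stayed on their side. Low read numbers per gene and 2 or 3 libraries a day limit what can be detected.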
